A study of Mus musculus with 4 samples.

Results

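The lymphatic endothelial identity genes described here are 8 genes by which lymphatic vessel cells are commonly told from other cells: Lyve1, Pdpn, Prox1, Mmrn1, Reln, Stab2, Ackr2 and Ackr4. They were found by symbol among the probe sets that the platform annotation gives to a single gene, which yielded 17 of 45037 probe sets and 8 of 18193 genes. Lyve1 and Reln have 2 probe sets each, as has Mmrn1. Prox1, Ackr2 and Ackr4 have 3 each, and Pdpn and Stab2 have 1 each.

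Lymphatic endothelium lines the vessels and the lymph node sinuses through which lymph, antigen and cells, including tumour cells, reach the node. Its identity is set by PROX1, a homeodomain transcription factor that switches venous endothelial cells to the lymphatic fate and is needed to keep it. The other members are surface receptors and secreted proteins of these cells, and several are shared with other cell types, so that no single one of them marks a lymphatic cell on its own.

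Cells came from female SCID/NOD mice of 6 to 8 weeks, a strain without working T and B cells. In the metastatic group, a flank tumour of human 293-VEGF-D cells, which overexpress the lymphatic growth factor VEGF-D, drained to the axillary lymph node that was taken. In the non-metastatic group the tumour was of 293-Apex cells, which the labels give as having no VEGF-D. Each group had 2 preparations described as biological replicates, with nodes of 1 to 5 mice pooled in each. Nodes were taken at tumour volumes of 1600 to 2500 mm3, after 3 to 4 weeks. Nodes of the metastatic group entered the study only if visibly enlarged. In both groups the digested nodes were cultured briefly in endothelial medium before bead selection for podoplanin, the product of the member Pdpn. Depletion of tumour cells and leukocytes before culture is stated by the sorting label for the metastatic group and denied by it for the non-metastatic group, while the growth protocol describes it for both. VEGF-D, the choice of enlarged nodes and the labelled depletion go with the group and cannot be told apart from metastasis.

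Array signals are given as log2 units, in which 1 unit is 2-fold. The signal of a probe set depends on its own probes as well as on the transcript, so values are compared between arrays for 1 probe set and not between genes. The metastatic replicates correlated at 0.9908, the non-metastatic ones at 0.9952, and arrays of different groups at 0.9909 to 0.9932. The 2 metastatic preparations were thus no more alike than preparations of different groups. With limma and Benjamini-Hochberg adjustment, 0 of 45037 probe sets were called (0%), against 2731 at an unadjusted p under 0.05 (6.06%). No member therefore passed the test, and the differences below are given as values. With 2 arrays on each side, the smallest p of an exact two-sided permutation test is 0.33. The preparations are bulk RNA, so that fewer cells of a type and less RNA per cell cannot be told apart.

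Lyve1 had the widest separation between the groups of any member, and its signal was lower in both metastatic preparations. It encodes a hyaluronan receptor of lymphatic endothelium, through which dendritic cells dock on lymphatic vessels, and is also carried by some tissue macrophages and by liver sinusoidal endothelium. The brighter probe set, 1429379_at, read 6.32 and 4.23 on the metastatic arrays, against 8.26 and 7.80 on the non-metastatic arrays. The groups did not overlap, and the 2 metastatic preparations lay 2.09 log2 units apart, against 0.455 between the non-metastatic ones. Metastatic preparations averaged 5.27 ± 1.48 and non-metastatic preparations 8.03 ± 0.32 (SD, n = 2 each). The difference was -2.76 (SE 0.64, 95% interval -4.35 to -1.17), or 6.77-fold lower signal in the metastatic group, and limma did not call it (adjusted p = 0.498). By size of difference Lyve1 was number 3 from the bottom among 18193 genes, and by p it was number 261.

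The second probe set of Lyve1, 1453128_at, which the annotation derives from the same cDNA, read 4.80 and 4.00 on the metastatic arrays and 6.01 and 5.69 on the non-metastatic arrays. It kept the order of the arrays seen with the brighter one, with metastatic replicate 2 lowest and non-metastatic replicate 1 highest. Its difference was smaller on the log2 scale, -1.45 (SE 0.28; limma adjusted p = 0.383), or 2.73-fold lower signal. Which metastatic preparation was kept set the size of the Lyve1 difference. Without metastatic replicate 2 the brighter probe set stood at -1.74, and without metastatic replicate 1 at -3.78. The second probe set stood at -1.05 and -1.87 in the same fits. A fit without 1 array takes the lone array of its group to vary like the other group.

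**Figure D1:**
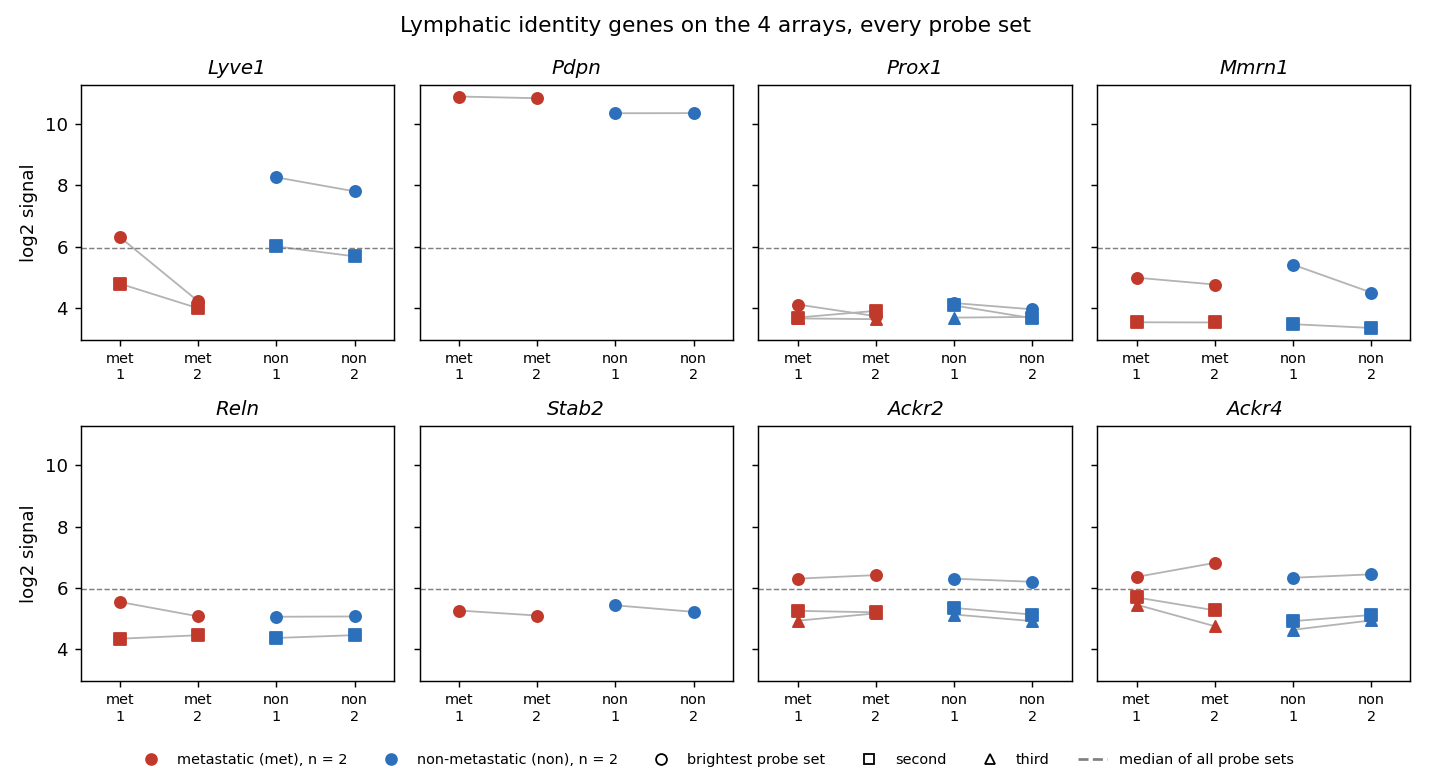
Log2 signal (vertical axis) of all 17 probe sets of the 8 genes on each of the 4 arrays, metastatic in red and non-metastatic in blue. Symbols separate the probe sets of a gene, thin lines join a probe set's replicates, and the dashed line is the median of all probe sets (5.95). Both Lyve1 probe sets lie lower on both metastatic arrays, Pdpn lies slightly higher, and the probe sets of Prox1 lie between 3.64 and 4.17 on every array.

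Only Lyve1 among the members spanned more than 1 log2 unit over the 4 arrays with its brightest probe set (4.03 units). The genes nearest to it in pattern were sought by the root mean square distance of values centred on their own mean, over 4 arrays and 11921 genes brighter than the median. Serpinb6b, a serpin, was nearest at a distance of 0.406 log2 units, followed by Emcn, an endothelial sialomucin, at 0.458. The lipid transporter gene Abca8a followed at 0.494, the B cell chemokine gene Cxcl13 at 0.500 and the metalloproteinase gene Mmp3 at 0.507. Cxcl13, which stromal cells of lymph node follicles secrete, read 9.84 and 7.58 on the metastatic arrays and 10.48 and 10.83 on the non-metastatic arrays. Abca8a read 9.04 and 6.90 on the metastatic arrays and 9.94 and 9.55 on the non-metastatic arrays. Each of the 5 genes had metastatic replicate 2 as its lowest array, as Lyve1 did, and limma called none of them (adjusted p = 0.185 to 0.770). With 4 arrays and 11921 genes searched, such likeness is a description only.

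**Figure D2:**
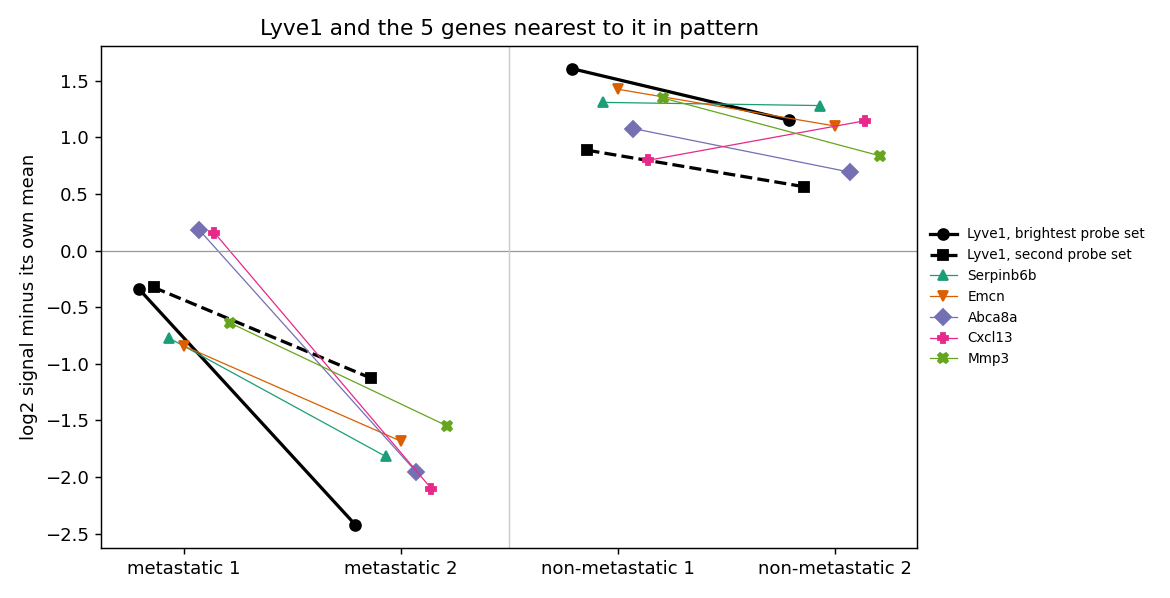
Log2 signal minus the probe set's own mean over the 4 arrays (vertical axis) for both Lyve1 probe sets in black and for the 5 genes nearest to Lyve1 in pattern, with metastatic arrays on the left. Lines join replicates of a group. All 7 probe sets have their lowest point on metastatic replicate 2, and both non-metastatic arrays lie above both metastatic arrays.

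The difference of Pdpn moved least of the 8 when single arrays were left out, and its signal was slightly higher in the metastatic preparations. It encodes podoplanin, a mucin-like surface protein of lymphatic endothelium that binds a receptor on platelets and dendritic cells, and that fibroblastic reticular cells and mesothelium also carry. The preparations were selected for this protein. Pdpn read 10.89 and 10.83 on the metastatic arrays, against 10.35 and 10.35 on the non-metastatic arrays, and 93.2% of probe sets were dimmer. The groups did not overlap, and the metastatic replicates lay within 0.056 log2 units of each other and the non-metastatic ones within 0.004. The difference was 0.51 (SE 0.11, 95% interval 0.25 to 0.78), a 1.43-fold higher signal, and limma did not call it (adjusted p = 0.424). It ranged from 0.49 to 0.54 with each array left out in turn. Among 18193 genes Pdpn was number 244 from the top by difference and number 182 by p.

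Prox1 was dim with each of its probe sets, and its differences were smaller than their SE. The brightest, 1457432_at, read 4.12 and 3.74 on the metastatic arrays and 4.17 and 3.96 on the non-metastatic arrays. The groups overlapped, and the difference was -0.14 (SE 0.17, 95% interval -0.55 to 0.27; limma adjusted p = 0.974). It turned to 0.05 without metastatic replicate 2. The probe sets 1421336_at and 1437894_at stood at -0.08 (SE 0.17) and -0.05 (SE 0.11). Only 3.08% to 9.82% of all probe sets were dimmer than these 3. The interval bounds the change of the signal and not that of Prox1 expression.

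Mmrn1 and Reln encode secreted proteins. Mmrn1 encodes multimerin 1, a large adhesive protein of platelets and endothelium that is strongly expressed in lymphatic vessels. Its brighter probe set, 1437260_at, read 4.99 and 4.77 on the metastatic arrays and 5.42 and 4.51 on the non-metastatic arrays. Both metastatic values lay between the 2 non-metastatic ones, so the replicates of 1 group differed by more than the groups. The difference was -0.08 (SE 0.30, 95% interval -0.81 to 0.65; limma adjusted p = 0.991). Its sign hung on single arrays, at 0.03 when metastatic replicate 2 was left out, 0.37 when non-metastatic replicate 1 was, and -0.53 when non-metastatic replicate 2 was. The other probe set, 1430621_at, was among the dimmest on the arrays, with 0.482% of probe sets dimmer, and stood at 0.12 (SE 0.11).

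Reln encodes reelin, a matrix glycoprotein best known from the layering of the brain and secreted by endothelium of collecting lymphatic vessels. It read 5.55 and 5.08 on the metastatic arrays and 5.06 and 5.07 on the non-metastatic arrays with 1449465_at. The groups only just stood apart, since metastatic replicate 2 lay level with both non-metastatic arrays and metastatic replicate 1 alone stood higher. The difference was 0.24 (SE 0.17, 95% interval -0.19 to 0.67; limma adjusted p = 0.949). Without metastatic replicate 1 it was 0.01 and without metastatic replicate 2 it was 0.48. The dimmer probe set of Reln, 1458020_at, stood at -0.01 (SE 0.11).

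Stab2 encodes stabilin-2, a scavenger receptor that clears hyaluronan and is found on sinus endothelium of liver, spleen and lymph node. Like LYVE1 it binds hyaluronan. Its only probe set, 1419423_at, read 5.27 and 5.10 on the metastatic arrays and 5.44 and 5.22 on the non-metastatic arrays, with the groups overlapping. In the deposited values, before quantile normalization, they did not overlap (metastatic 5.19 and 5.15, non-metastatic 5.44 and 5.25). The difference was -0.14 (SE 0.13, 95% interval -0.47 to 0.18; limma adjusted p = 0.966), smaller than the 0.212 between the non-metastatic replicates. It stayed negative in the 9 alternatives run, between -0.25 and -0.04. Its scavenger relative Stab1, which macrophages also carry, stood at -0.27 (SE 0.23) and is named outside the rule for list genes.

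The atypical chemokine receptors bind chemokines without signalling through G proteins and remove them from the tissue. Ackr2, whose product scavenges inflammatory CC chemokines on lymphatic endothelium, read 6.30 and 6.42 on the metastatic arrays and 6.30 and 6.20 on the non-metastatic arrays with 1422111_at. The groups were just apart, but overlapped in the deposited values before quantile normalization. The difference was 0.11 (SE 0.11, 95% interval -0.17 to 0.39; limma adjusted p = 0.972). It was 0.05 without metastatic replicate 2 and 0.16 without metastatic replicate 1. The probe sets 1437937_at and 1422112_at stood at -0.01 (SE 0.12) and 0.03 (SE 0.14), so the 3 did not share a sign.

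Ackr4, whose product removes the homing chemokines CCL19 and CCL21 on lymphatic cells lining the outer wall of the subcapsular sinus, gave positive differences with all 3 of its probe sets. The brightest, 1426139_a_at, read 6.36 and 6.82 on the metastatic arrays and 6.33 and 6.45 on the non-metastatic arrays, with the groups overlapping and a difference of 0.20 (SE 0.17, 95% interval -0.23 to 0.63; limma adjusted p = 0.966). The probe set 1437669_x_at read 5.69 and 5.27 on the metastatic arrays and 4.92 and 5.12 on the non-metastatic arrays, without overlap. Its difference was 0.46 (SE 0.17, 95% interval 0.03 to 0.89), and limma did not call it (adjusted p = 0.784). The array's naming marks this probe set as able to bind other transcripts too. The third, 1437668_at, which derives from the same cDNA, stood at 0.31 (SE 0.25). The probe sets of Ackr4 disagreed on the order of the metastatic arrays, since replicate 2 was higher with the brightest and replicate 1 was higher with the other two. Without metastatic replicate 2 the brightest stood at -0.03, and without metastatic replicate 1 at 0.42.

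**Figure D3:**
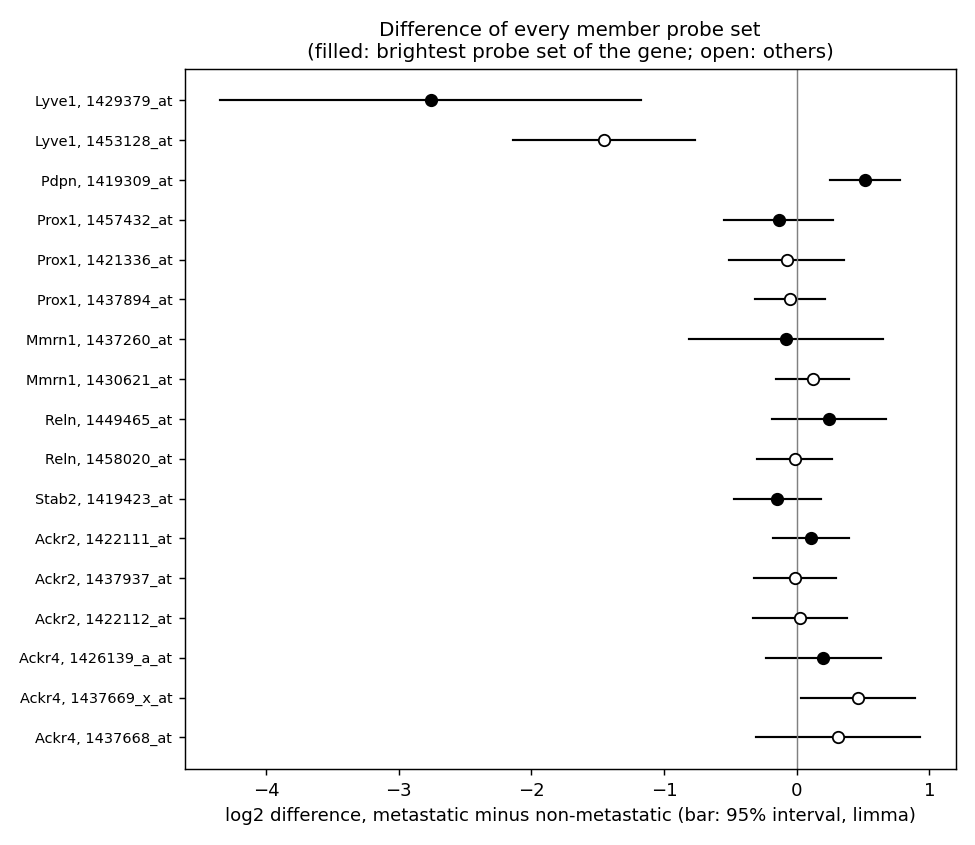
Log2 difference, metastatic minus non-metastatic (horizontal axis), of all 17 member probe sets with the 95% interval from limma (n = 2 arrays each). Filled points are the brightest probe set of a gene and open points the others. Both intervals of Lyve1 lie below 0, those of Pdpn and of 1 probe set of Ackr4 lie above 0, and the other 13 include 0.

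Over the 8 genes with 1 probe set each, 4 differences were positive and 4 negative, with a median of 0.01 (-0.00034 over all 18193 genes). At an unadjusted p under 0.05, 1 member was higher (Pdpn), where 2.63% of genes were, and 1 was lower (Lyve1), where 4.07% were. Groups did not overlap for 4 members, against 34.6% of genes. Pdpn, Reln and Ackr2 were higher in the metastatic group in this sense, as were 17.2% of genes, and Lyve1 was lower, as were 17.3%. Reln and Ackr2 stood apart only narrowly. In the deposited values the count was also 4, with Stab2 lower in place of Ackr2, whose groups overlapped there. Lyve1 alone of the 8 was at least 2-fold lower, as were 0.704% of genes. Without Lyve1 and Pdpn, the 14 probe sets of the other 6 genes lay between -0.14 and 0.46, and 12 of the 14 were dimmer than the median of all probe sets.

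Other genes of the lymphatic programme were counted from a list of 24 regulators and signalling genes, of which 23 were measured and 0 were called by limma (0% of all genes). At an unadjusted p under 0.05, 2 were higher and 2 lower, and the median difference was -0.13, or -0.07 without non-metastatic replicate 1. Without metastatic replicate 2, 7 genes had such a p, in a fit where 6407 of all 45037 probe sets did. Nr2f2, a nuclear receptor that acts with PROX1 at the start of the lymphatic fate, read 9.10 and 9.03 on the metastatic arrays and 10.12 and 9.63 on the non-metastatic arrays (difference -0.81, SE 0.18; limma adjusted p = 0.468). Vegfd, the mouse gene of the lymphatic growth factor, stood at -0.86 (SE 0.16; limma adjusted p = 0.383). The VEGF coreceptor gene Nrp2 stood at 0.71 (SE 0.24; limma adjusted p = 0.723) and the connexin gene Gja1 at 0.43 (SE 0.15; limma adjusted p = 0.756). The probe sets of Vegfd and Gja1 are marked as able to bind other transcripts. Flt4, which encodes the main VEGF receptor of lymphatic vessels and is named outside the rule, stood within its SE at -0.13 (SE 0.17).

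A second list held 18 genes known from subsets of lymph node lymphatic endothelium, of which 17 were measured and 0 were called by limma. At an unadjusted p under 0.05, 0 lay higher and 3 lower, and the list median was -0.10, with a range of -0.18 to -0.04 when single arrays were left out, the nearest to 0 without non-metastatic replicate 1, and -0.19 with brighter probe sets only. Without metastatic replicate 2, 6 genes had such a p, again beside 6407 of 45037 probe sets. Cavin2, a protein of caveolae, read 11.90 and 12.22 on the metastatic arrays and 12.88 and 12.94 on the non-metastatic arrays (difference -0.85, SE 0.14; limma adjusted p = 0.356). The ceruloplasmin gene Cp stood at -0.77 (SE 0.17; limma adjusted p = 0.453). Spns2, which exports the lipid sphingosine 1-phosphate into lymph, stood at -0.45 (SE 0.13; limma adjusted p = 0.624). The sodium pump regulator Fxyd6 had 0.27 (SE 0.12; limma adjusted p = 0.859). Mrc1, Marco and Madcam1, which mark sinus lymphatic cells and are named outside the rule, differed by -0.20 (SE 0.15), -0.20 (SE 0.18) and -0.09 (SE 0.11). Of the 17 differences 10 were negative and 7 positive. The positive ones included Foxp2 at 0.16 (SE 0.20), Ptx3 at 0.10 (SE 0.18) and Ccl20 at 0.07 (SE 0.11), also named outside the rule.

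Markers of other cell types were read beside these values. Limma called 0 of them, and their part in the Lyve1 and Pdpn values was not tested. Over all 18193 genes, 2.63% lay higher and 4.07% lower at an unadjusted p under 0.05 in limma. Signals were summed on the linear scale, so the brightest genes of a list weigh most in its sum. For endothelial markers shared with blood vessels, the signal summed over 22 genes ran from 2697 to 2833 on metastatic arrays and from 3432 to 4111 on non-metastatic arrays. Eng, the brightest of the 22 and named outside the rule, weighs most in these sums and stood at -0.49 (SE 0.17). The sums therefore do not describe the list as a whole. Of these 22 genes 0 were called, 5 were lower and 0 higher at an unadjusted p under 0.05, and the median was -0.08. Without metastatic replicate 1 the median was -0.31 and limma called 1 gene, and without non-metastatic replicate 1 the median was -0.03 and 2 genes had such a p. Emcn, Ecscr, Icam2 and Ptprb had the smallest p, at -2.53 (SE 0.29), -1.18 (SE 0.26), -0.62 (SE 0.15) and -0.52 (SE 0.14). Of the 22 differences 14 were negative and 8 positive. Kdr, Erg and Sox17, named outside the rule, stood at 0.12 (SE 0.11), 0.15 (SE 0.17) and 0.19 (SE 0.15). Pecam1 and Cdh5, defining endothelial genes, are named outside the rule too. Pecam1 read 4.76 and 4.78 on the metastatic arrays and 5.36 and 4.87 on the non-metastatic arrays (difference -0.34, SE 0.18; limma adjusted p = 0.898). Cdh5 read 5.73 and 5.32 on the metastatic arrays and 6.76 and 5.68 on the non-metastatic arrays, with overlap (difference -0.70, SE 0.36; limma adjusted p = 0.895). Without detection calls these signals do not show whether either gene is expressed.

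Macrophages can carry LYVE1, and the 14 measured genes of macrophages and other leukocytes summed to 1361 to 1634 on metastatic arrays and 1989 to 2216 on non-metastatic arrays. At an unadjusted p under 0.05, 3 of the 14 lay lower and 0 higher, and the list median was -0.19. It was -0.06 without metastatic replicate 2, -0.12 without non-metastatic replicate 1, -0.29 without metastatic replicate 1 and -0.38 with brighter probe sets only. Lyz2, a lysozyme gene, read 6.06 and 6.16 on the metastatic arrays and 8.29 and 6.86 on the non-metastatic arrays (difference -1.47, SE 0.44; limma adjusted p = 0.645). The growth factor receptor gene Csf1r stood at -0.54 (SE 0.16), the Fc receptor gene Fcgr3, whose protein is among the targets named for the leukocyte depletion, at -0.52 (SE 0.17) and the integrin gene Itgam at 0.28 (SE 0.14). The defining genes Ptprc of leukocytes and Adgre1 of macrophages, named outside the rule, differed by 0.04 (SE 0.13) and -0.06 (SE 0.17).

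Fibroblastic reticular cells carry podoplanin as well. The summed signal of 13 measured fibroblast genes, 73223 to 73593 on metastatic arrays and 68838 to 73672 on non-metastatic arrays, overlapped between groups, with a median difference of -0.02 that was -0.31 without metastatic replicate 1 and turned to 0.02 without metastatic replicate 2. Of the 13, 1 was higher and 3 were lower at an unadjusted p under 0.05. The count of such genes moved when single arrays were left out, as did the count over all probe sets. The matrix gene Postn stood at 0.84 (SE 0.15), Bst1 at -0.34 (SE 0.11), the cytokine gene Il6 at -1.02 (SE 0.34) and Cxcl13 at -1.95 (SE 0.69). Pdgfrb and Pdgfra, growth factor receptors that define these cells and are named outside the rule, stood at -0.02 (SE 0.13) and 0.25 (SE 0.19). Both were bright, with 98.1% of probe sets dimmer than each. Of the 13 fibroblast genes, 11 lay at or above the median of all probe sets and 2 below it.

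The 12 smooth muscle and pericyte genes summed to 18111 to 29111 on metastatic arrays and 34548 to 36443 on non-metastatic arrays. Acta2 and Tagln, the brightest of the 12 and named outside the rule, weigh most in these sums. They stood at -0.53 (SE 0.20) and -0.84 (SE 0.34). Of the 12 differences 10 were negative and 2 positive. The positive ones were Rgs5 at 0.03 (SE 0.12) and Kcnj8 at 0.02 (SE 0.12). Des overlapped between groups at -0.15 (SE 0.24), and these genes too are named outside the rule. Of the 12 genes, 7 were lower and 0 higher at an unadjusted p under 0.05, and the median was -0.57, or -0.38 without metastatic replicate 1. This count, like that over all probe sets, moved when single arrays were left out. Limma called 1 of the 12 with an intensity trend and robust moderation, where it called 5 of all 45037 probe sets. Actg2, Myh11, Lmod1 and Mcam, genes of contractile fibres and of an adhesion molecule, had the smallest p, at -1.86 (SE 0.11), -0.61 (SE 0.11), -0.66 (SE 0.13) and -1.05 (SE 0.25). Mesothelium carries podoplanin, and its 12 genes, counted with epithelial ones, had 1 higher and 1 lower at that p, a median of -0.12 and overlapping sums (1459 to 2622 on metastatic arrays, 2030 to 3790 on non-metastatic arrays). Perp, a desmosome gene, stood at -2.64 (SE 0.20), the transcription factor gene Wt1 at 1.00 (SE 0.24), the mesothelin gene Msln at -1.44 (SE 0.65) and Lrrn4 at -0.19 (SE 0.11). Of these 12 differences 10 were negative and 2 positive. Dsp, another desmosome gene but dim (6.13% of probe sets dimmer), stood at -0.04 (SE 0.11). Krt19 and Upk3b stood at 0.06 (SE 0.39) and -0.0018 (SE 0.12), and like Dsp are named outside the rule. The probe sets of Wt1 and Acta2 are marked as able to bind other transcripts. The count of mesothelium and epithelium genes at that p also moved when single arrays were left out. The median was -0.00064 without non-metastatic replicate 2 and -0.36 with brighter probe sets only, and limma called 1 gene with an intensity trend and robust moderation.

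**Figure D4:**
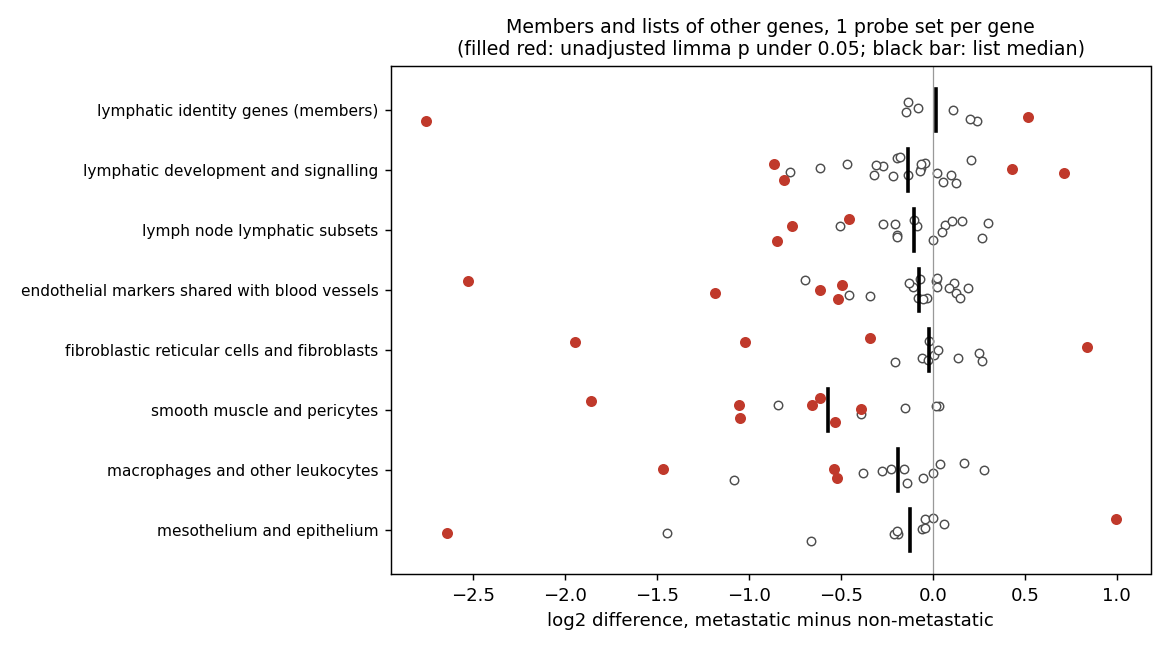
Log2 difference, metastatic minus non-metastatic (horizontal axis), of the 8 lymphatic identity genes and of 7 lists of other genes, 1 probe set per gene. Filled red points have an unadjusted limma p under 0.05, and the black bar is the list median, which runs from -0.57 for smooth muscle and pericytes to 0.01 for the 8 members. Lyve1 is the leftmost point of the top row and Pdpn the rightmost.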

How the data were processed

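RNA of 4 preparations of podoplanin-selected lymph node cells was hybridised to Affymetrix oligonucleotide arrays, 1 array each. Biotin labelling started from 3 ug of RNA in a single cycle and 20 ug of cRNA was fragmented, per the labels' protocols. The authors deposited 1 log2 signal per probe set, a scale read from the values (3.10 to 14.87). Software for the probe summary, or for scaling arrays to each other, is not named in the labels. Detection calls were not used, so a dim probe set cannot be called absent, and the number of arrays limits the precision.

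Deposited array medians ran from 5.88 to 5.99, a gap of 0.116, and quantile normalization in limma, applied where the gap exceeded 0.1, followed. After 64 control probe sets were left out, 45037 were tested with no filter on dim ones. The platform annotation gave 1 symbol to 34945 probe sets, several to 932 and none to 9160. Symbols were updated through Entrez numbers in the RefSeq table (GRCm38.p6) for 34741. The brightest probe set by mean over the 4 arrays stood for a gene (18193 genes).

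Groups came from the sample titles. The test was limma (lmFit, eBayes; 2 residual and 3.71 prior degrees of freedom) as metastatic minus non-metastatic, with Benjamini-Hochberg adjustment over all 45037 probe sets and calls under 0.05. Intervals are 95% and moderated. The members and the lists of other genes were chosen with earlier results of these data known. Named genes were the 8 members with every probe set, up to 4 genes of each list with the smallest limma p, and, for a member spanning over 1 log2 unit across the arrays, the 5 genes nearest in pattern among those brighter than the median. Defining markers and relatives named outside this rule are marked in the text. The fit was run on data simulated from its own model with independent arrays. This checks the code and not how the model suits these arrays. Alternatives were the deposited values, centred medians, the mean or the second brightest of a gene's probe sets, brighter probe sets only, an intensity trend with robust moderation, the replicate number as a block, and each array left out in turn with the other 3 normalized again. R 4.3.3, limma 3.58.1, Python 3.11.15 and matplotlib 3.10.9 were used.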

Additional observations from a re-analysis of the deposited data

How the results depend on the processing

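The count of 0 probe sets called became 5 with an intensity trend and robust moderation and 145 with the replicate number as a block, and ranged from 0 to 65 with each array left out in turn (1348 to 6407 at an unadjusted p under 0.05). The cause of the first was not tested. The count of 0 members called became 1, Lyve1, with the replicate block (limma adjusted p = 0.0393) and ranged from 0 to 1 with each array left out in turn. The labels state no pairing by number. Over all probe sets, the gap between metastatic replicates 1 and 2 and that between non-metastatic replicates 1 and 2 correlated at 0.248, and 2 pairs are too few to settle a pairing. The 4 members whose groups did not overlap ranged from 4 to 8 with each array left out in turn, as separation is easier with 3 arrays. Signs turned for Mmrn1, Prox1, Ackr4, Reln and Ackr2. Mmrn1 had 0.020 with the mean of its probe sets and ranged from -0.53 to 0.37 with each array left out in turn. In those fits Prox1 ranged from -0.33 to 0.055 and Ackr4 from -0.028 to 0.42, both turning when metastatic replicate 2 was left out. With the second brightest probe set Mmrn1, Reln and Ackr2 had 0.12, -0.014 and -0.011. Lyve1 lay between -3.78 and -1.45, and Pdpn between 0.49 and 0.54, in every alternative run for them. Of the values for the lists of other genes, 184 kept within the limits set for them and 26 moved. Limma called 1 smooth muscle and 1 mesothelium or epithelium gene with the intensity trend. With the replicate block it called 1 endothelial, 3 smooth muscle and 1 mesothelium or epithelium gene, and without metastatic replicate 1 it called 1 gene each of the endothelial, fibroblast and smooth muscle lists. Brighter probe sets only left no value for Prox1, Mmrn1, Reln and Stab2. No depth is known for the arrays, and signal near the bottom of the scale limits Prox1 and Mmrn1 most.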

Other observations

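Some genes of the lists above differed more between the 2 metastatic preparations than between the groups. They were picked after their values were seen. Cd36, a fatty acid receptor of endothelium and macrophages, read 6.94 and 4.44 on the metastatic arrays and 5.87 and 4.91 on the non-metastatic arrays (difference 0.30, SE 0.80; limma adjusted p = 0.989). Ramp2, a receptor partner that lets endothelium sense adrenomedullin, read 7.47 and 5.98 on the metastatic arrays and 7.25 and 6.31 on the non-metastatic arrays (difference -0.05, SE 0.53; limma adjusted p = 0.997). For both genes replicate 1 was the higher array in each group. Among 18193 genes, 30 (0.165%) had a wider gap than Lyve1 between the metastatic preparations.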
